A study of Mus musculus with 56 samples.

Results

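The 4 genes described here, Eno1, Eno1b, Eno2 and Eno3, encode enolases and were taken by name from the gene tables, out of 23259 genes listed in any of the 6 tables. All 4 were listed in the brain, muscle and both N2a tables, and 3 of them in the liver and testis tables, where Eno2 was not analysed here. They were chosen by the measured Fmr1 knockout (KO) against wild-type (WT) values of liver and muscle, where Eno1b was far lower in KO. Those 2 comparisons are therefore given as descriptions without a test, and the other comparisons with one.

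RNA sequencing covered 56 libraries in 19 groups. WT and Fmr1 KO mice gave 3 libraries per genotype of testis, muscle, liver and 3 brain regions (cerebellum, cortex and hippocampus), with no age, sex, strain or knockout allele given. N2a cells, a mouse neuroblastoma line, received a non-targeting small interfering RNA (siNT, 2 libraries) or one against Fmr1 (siFmr1, 3 libraries). In a second N2a experiment, siRNA and plasmid were delivered together, in 3 libraries per group: siNT_pcDNA, siFmr1_pcDNA and siMbnl1_pcDNA with the pcDNA plasmid, siFmr1_nMBNL1 with FLAG-tagged nuclear MBNL1, and siMbnl1_cMBNL1 with FLAG-tagged cytosolic MBNL1. Fmr1 encodes the RNA-binding protein FMRP, and MBNL1 is a splicing regulator. Nothing in the labels says that replicates came from separate animals or cultures, so the p-values measure the spread between these libraries, which may be technical.

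Enolase converts 2-phosphoglycerate to phosphoenolpyruvate in glycolysis, and runs in reverse in gluconeogenesis. The active enzyme is a dimer. Eno1 encodes the alpha subunit, made in most tissues, Eno2 the gamma subunit of neurons and neuroendocrine cells, and Eno3 the beta subunit of skeletal and heart muscle. A retrogene is a copy of a gene made from its spliced messenger RNA. In the GRCm38 annotation (GENCODE M21), Eno1 lies on chromosome 4 from 150236721 to 150248879 on the plus strand and has up to 12 exons. Eno1b lies on chromosome 18 from 48045335 to 48048412 on the plus strand, is annotated as protein coding and has at most 2 exons. Eno2 lies on chromosome 6 from 124760053 to 124769673 on the minus strand, and Eno3 on chromosome 11 from 70657202 to 70662513 on the plus strand.

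The coding sequences of Eno1 and Eno1b were identical at 1294 of 1302 bases (99.4%), and both translate to the same 434 residues. The other pairs of members were 75.1% to 77.4% identical in coding sequence and 82.9% to 83.6% identical when translated. Of the 8 differing bases, up to 4 fell within one stretch of 150 coding bases, and other stretches of that length held 0. Of all stretches of 50 bases in the 2027-base Eno1-202 transcript, 70.5% also occurred exactly in an Eno1b transcript, as did 58.6% of those of 100 bases and 48.5% of those of 150 bases. How reads that match both genes were assigned is not given in the sources used here, so the split between Eno1 and Eno1b is uncertain at every value given. Their sum is given beside them for liver and muscle, and in other comparisons where either gene was called.

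Count totals ran from 26264368 to 41384652 per library in the brain table and from 13230785 to 16268865 in the liver, muscle, testis and first N2a tables. The co-transfection table held normalized counts, so its depth is unknown. Fmr1 was lower in every KO library than in every WT library in the 3 brain regions, liver and testis, with log2 fold changes from -1.61 to -1.97. In muscle the Fmr1 levels overlapped, at 3.99 to 6.09 TPM (a level scaled for transcript length and depth) in WT and 3.21 to 4.33 in KO, and the difference did not pass the edgeR test (adjusted p = 0.0734). In the first N2a experiment they overlapped too, at 5.66 and 34.0 TPM in the libraries labelled siNT and 0.7 to 6.62 TPM in those labelled siFmr1. In the co-transfection, Fmr1 was at 418 to 662 normalized counts in the siFmr1 groups and 2620 to 3600 in the others. The defining markers of hepatocytes, skeletal muscle and testis germ cells were all present in the tissue labelled as such, with summed levels of at least 75245, 113641 and 44228 TPM. TPM is a level per transcript length, so it can be compared between genes, but tables were prepared separately and no test was made across them. In bulk tissue, fewer cells of a type and less RNA per cell cannot be told apart.

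Eno1 had the highest level of the members in every WT tissue but muscle, where Eno3 did. Eno1 stood in WT liver, at 320 ± 88.8 TPM (SD, n = 3), and in WT testis, at 462 ± 6.58 TPM. In WT muscle Eno3 stood at 8220 ± 247 TPM, where Eno1 stood at 67.0 ± 13.2 TPM and Eno2 at 0.307 ± 0.159 TPM. In the 3 WT brain regions Eno1 stood at 1018 to 1217 TPM and Eno2 at 649 to 739 TPM.

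By mean TPM, WT Eno1b was highest in liver at 143 ± 43.4, followed by testis at 53.3 ± 2.74, muscle at 48.4 ± 13.2, hippocampus at 32.5 ± 0.453, cerebellum at 30.3 ± 0.331 and cortex at 29.3 ± 3.12. Testis and muscle, and cerebellum and cortex, are neighbours in that order whose libraries overlapped. The order for Eno3 was muscle, testis at 39.3 ± 1.89, cerebellum at 15.6 ± 1.26, cortex at 6.74 ± 0.58, hippocampus at 6.73 ± 1.36 and liver at 3.85 ± 1.08 TPM. Cortex and hippocampus did not differ beyond their spread. For Eno1 the order was hippocampus, cerebellum at 1051 ± 70.2, cortex at 1018 ± 79.2, testis, liver and muscle, and cerebellum and cortex overlapped.

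**Figure D1:**
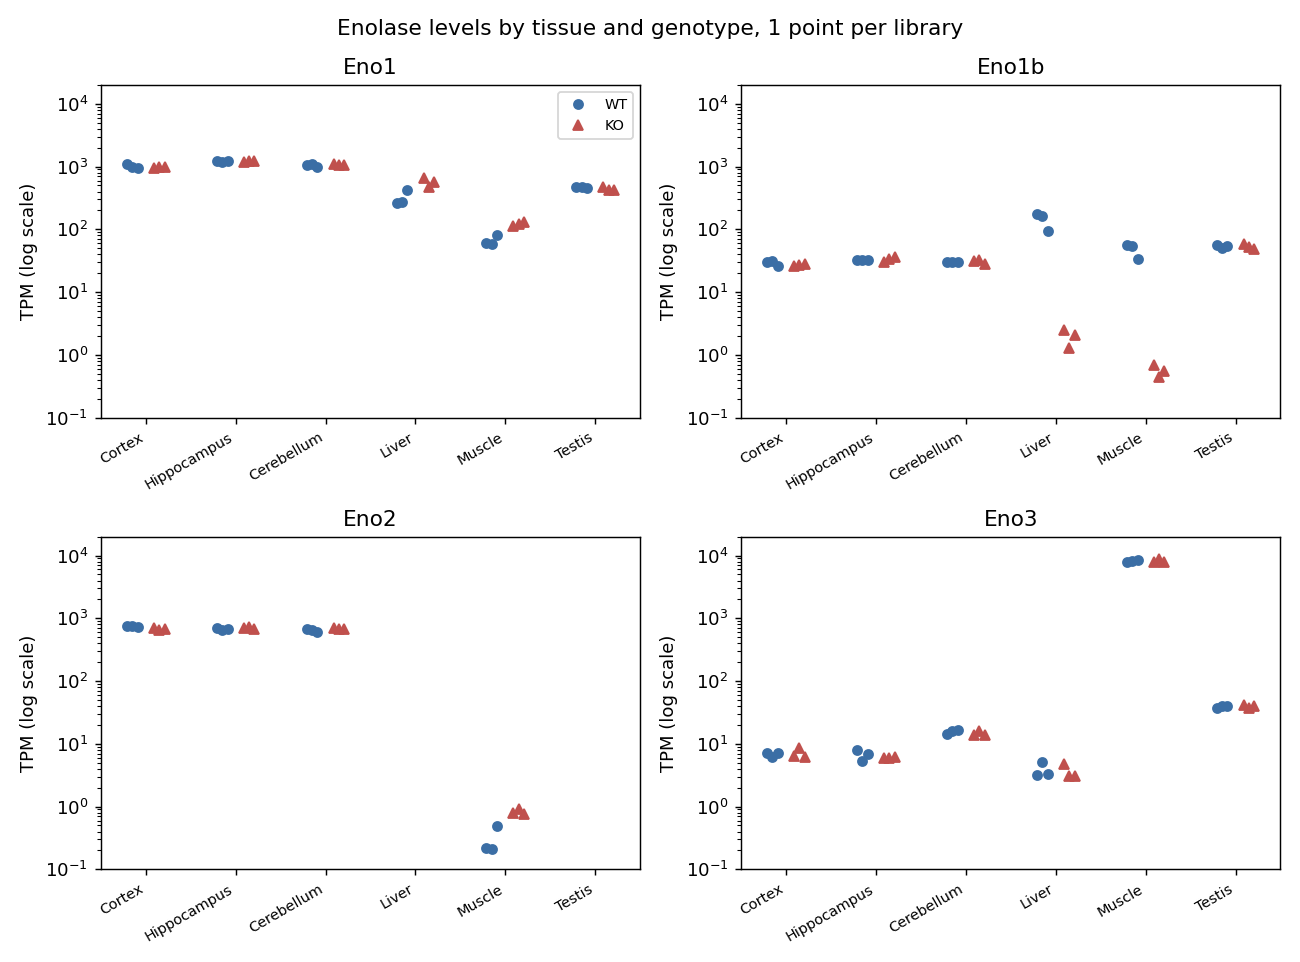
TPM on a log scale (vertical) of each enolase gene by tissue (horizontal), 1 point per library, circles for WT and triangles for KO. Eno1b separates by genotype in liver and muscle, where WT libraries lie at 33.2 TPM or above and KO libraries at 2.49 TPM or below, while Eno3 reaches about 8220 TPM in WT muscle.

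In liver, Eno1b was nearly absent from the KO libraries while Eno1 stood higher. Eno1b measured 173, 162 and 92.8 TPM in the WT libraries and 2.49, 1.29 and 2.08 TPM in the KO libraries. These rest on 2812, 2648 and 1240 reads in WT and 36, 17 and 31 reads in KO. The groups were 73.0-fold apart in mean TPM and did not overlap.

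Liver Eno1 measured 261, 277 and 422 TPM in WT and 650, 468 and 573 TPM in KO, so every KO library was above every WT library. Its log2 fold change was 0.78 ± 0.20 (SE), against -6.23 ± 0.35 for Eno1b. The sum of the 2 genes was 434, 439 and 515 TPM in WT and 653, 469 and 575 TPM in KO. The sums overlapped, and their log2 fold change was 0.26 ± 0.15. In TPM, the mean of Eno1b was 141 lower in KO and that of Eno1 244 higher, so that the Eno1 difference was 173% of the Eno1b one. On the scale of CPM with TMM factors (TMM CPM), a count scaled for depth and library composition, it was 162%. Eno3 in liver was low in both genotypes, with 3.16, 5.1 and 3.3 TPM in WT and 4.79, 3.06 and 3.09 TPM in KO.

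Muscle had the same arrangement at lower levels. Eno1b measured 57.2, 54.9 and 33.2 TPM in WT and 0.69, 0.45 and 0.55 TPM in KO, from 881, 774 and 484 reads against 9, 6 and 7. Eno1 measured 61.5, 57.4 and 82.0 TPM in WT and 115, 122 and 132 TPM in KO. Neither gene overlapped between genotypes, and the log2 fold changes were -6.70 ± 0.31 for Eno1b and 0.66 ± 0.13 for Eno1.

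The summed muscle level was 119, 112 and 115 TPM in WT and 116, 122 and 132 TPM in KO, and these overlapped. Its log2 fold change was -0.12 ± 0.09. The Eno1 difference was 117% of the Eno1b difference in TPM (56.0 against 47.9) and 79.9% in TMM CPM (41.3 against 51.7). The direction of the summed level in muscle thus turned with the scale: the KO minus WT difference was 8 TPM but -9.67 TMM CPM.

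WT replicate 3 had the lowest Eno1b and the highest Eno1 of the WT libraries in both tissues. Without it, an alternative chosen after seeing the data, the Eno1 difference was 178% of the Eno1b difference in liver and 115% in muscle, in TPM. Of all genes tested, edgeR with Benjamini-Hochberg adjustment called 0.411% in liver and 4.04% in muscle at an adjusted p under 0.05. Nothing is read from these shares for the members, since liver and muscle chose them.

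**Figure D2:**
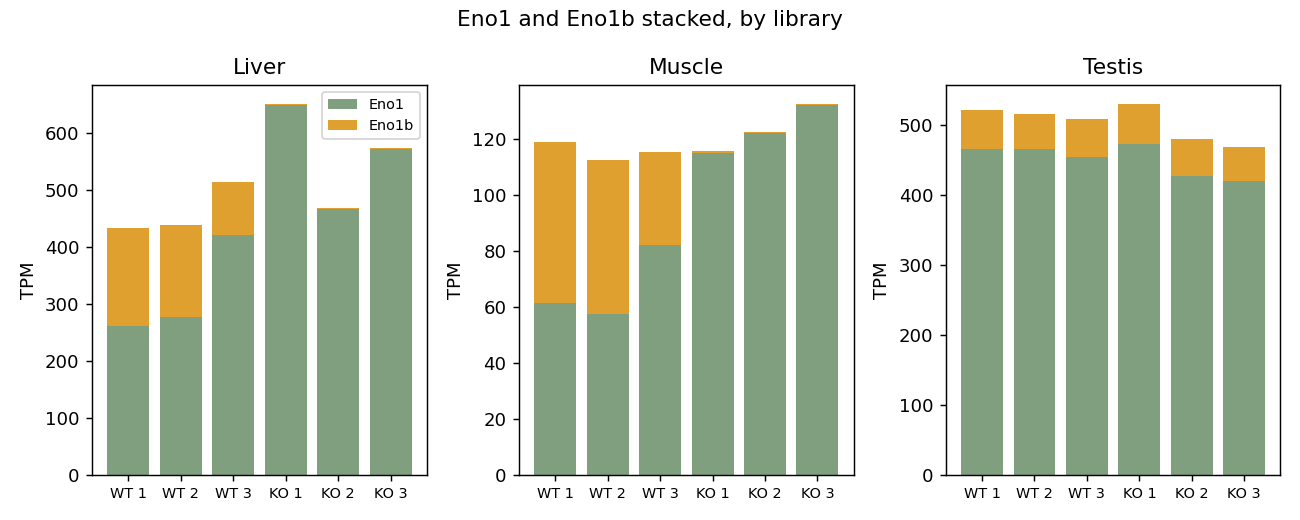
Stacked bars of Eno1 (green) and Eno1b (orange) TPM in each library of liver, muscle and testis, from 0. In liver and muscle the Eno1b part is visible in the 3 WT bars and almost gone in the 3 KO bars, and the whole bars overlap between genotypes. In testis both parts are similar.

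Eno2 was at the edge of detection in muscle, with 5, 5 and 12 reads in WT and 17, 21 and 17 in KO. Its levels were 0.22, 0.21 and 0.49 TPM in WT and 0.8, 0.93 and 0.76 TPM in KO, without overlap, at a log2 fold change of 1.20 ± 0.42. Eno3, the main muscle enolase, measured 7987, 8196 and 8479 TPM in WT and 7910, 8924 and 7858 TPM in KO, with overlap. In TMM CPM every KO library was below every WT library for Eno3, by -1010 in the mean (log2 fold change -0.21 ± 0.13), while in TPM the KO minus WT difference was 10.

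In muscle, the summed adipocyte and leukocyte markers were higher in every KO library than in every WT library. The sums for blood, slow fibres and skeletal muscle overlapped. All 3 adipocyte markers, Adipoq, Plin1 and Cfd, were listed, and their summed level was 104 to 161 TPM in WT and 223 to 560 TPM in KO. The 3 leukocyte markers summed to 119 to 134 TPM in WT and 186 to 209 TPM in KO. Their part in the muscle values was not tested. In liver the leukocyte sums overlapped (94.7 to 115 TPM in WT, 92.3 to 110 TPM in KO), as did hepatocyte markers (75245 to 87902 and 84804 to 98533 TPM).

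Eno1b levels of WT and KO overlapped in brain and testis. In cortex, Eno1b measured 30.6, 31.5 and 25.7 TPM in WT and 25.7, 27.4 and 28.2 TPM in KO. In hippocampus it was 32.2, 32.2 and 33.0 against 30.5, 33.5 and 36 TPM, and in cerebellum 30.5, 29.9 and 30.4 against 31.0, 32.5 and 28.4 TPM. No region had Eno1b lower in all KO libraries.

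None of the 4 members passed the edgeR test in cortex, hippocampus or cerebellum, where 0.0203%, 0.209% and 0.226% of all tested genes were called. At an unadjusted p under 0.05 there was 1 in cortex and 0 in each of the other regions, and DESeq2 also called 0. Eno1b differed by -0.12 ± 0.10 in cortex, 0.046 ± 0.076 in hippocampus and 0.038 ± 0.074 in cerebellum (log2 fold change ± SE). Eno1 differed by -0.073 ± 0.067 in cortex and 0.035 ± 0.059 in cerebellum.

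The cortex gene with the unadjusted call was Eno2, at 756, 747 and 715 TPM in WT and 706, 662 and 670 TPM in KO. All KO libraries were below all WT libraries, at a log2 fold change of -0.14 ± 0.06 (edgeR adjusted p = 0.209). In the other regions Eno2 overlapped, with log2 fold changes of 0.056 ± 0.054 in hippocampus and 0.094 ± 0.053 in cerebellum. The region by genotype interaction of Eno2 was 0.22 ± 0.08 for cerebellum minus cortex (edgeR adjusted p = 0.203) and 0.19 ± 0.08 for hippocampus minus cortex (edgeR adjusted p = 0.413). No interaction of a member passed.

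In testis, Eno1b measured 55.3, 50.2 and 54.4 TPM in WT and 58.1, 52.2 and 49.3 TPM in KO, and Eno1 466, 466 and 454 against 473, 428 and 420 TPM. Both overlapped. None of the 3 members in the testis table passed the edgeR test, where 4.27% of genes were called, and 0 passed at an unadjusted p under 0.05 or with DESeq2. The log2 fold changes were 0.0052 ± 0.080 for Eno1b, -0.061 ± 0.062 for Eno1 and 0.0076 ± 0.090 for Eno3.

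The ratio of the 2 genes does not depend on library scale. As a share of Eno1 and Eno1b counts together, Eno1b made up 2.77% ± 0.272 in WT and 2.68% ± 0.0954 in KO cortex (SD, n = 3 each). It made up 2.57% and 2.65% in hippocampus, 2.78% and 2.78% in cerebellum, and 10.2% and 10.7% in testis. In liver it was 31.4% ± 11.8 in WT and 0.334% ± 0.0546 in KO, and in muscle 41.7% ± 11.4 and 0.432% ± 0.0969. The WT spread in both tissues came with replicate 3, at 17.9% in liver and 28.6% in muscle. The 95% Wilson intervals drawn for single libraries cover counting error only.

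**Figure D3:**
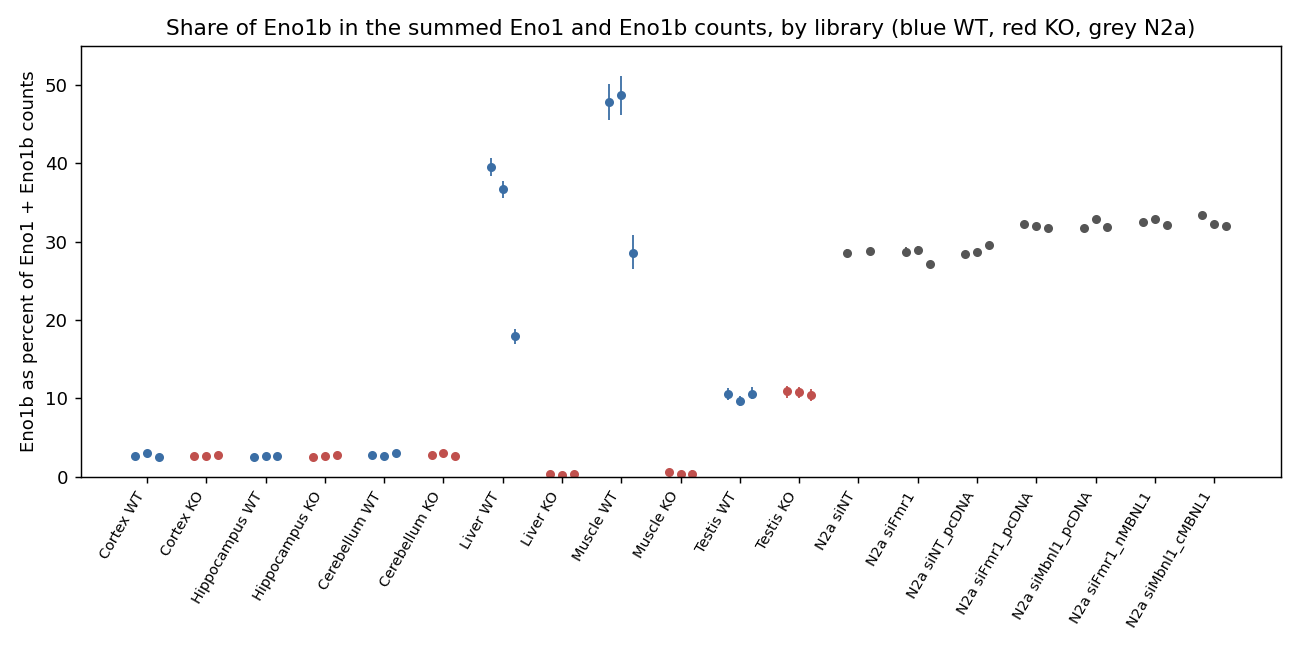
Eno1b as a percentage of the summed Eno1 and Eno1b counts (vertical) in each library, by group (horizontal), with 95% Wilson intervals where counts exist; blue is WT, red KO and grey N2a. Liver and muscle KO libraries lie below 1%, brain libraries between 2.5% and 3.08%, and N2a libraries between 27.2% and 33.4%.

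N2a cells held much Eno1b. In the first experiment, Eno1b measured 584 and 840 TPM in the siNT libraries and 661, 753 and 906 TPM in the siFmr1 libraries, with Eno1 at 1447 and 2058 against 1626, 1834 and 2409 TPM. Eno2 measured 53.2 and 92.2 against 72.9, 40.5 and 91.1 TPM, and Eno3 19.4 and 14.7 against 16.7, 22.2 and 21.6 TPM. All 4 genes overlapped, and edgeR called none (0% of genes called). With DESeq2, and at an unadjusted p under 0.05, the count was also 0. The Eno1b share was 28.7% and 28.3%. This comparison had the widest errors, with a log2 fold change of -0.19 ± 0.49 for Eno1b and -0.14 ± 0.52 for Eno1. The signs turned with the scale: the siFmr1 minus siNT difference of Eno1 was 204 TPM but -200 TMM CPM, and that of Eno1b 61.3 TPM but -106 TMM CPM. They also turned with single libraries, from -0.653 to 0.645 for Eno1 and from -0.707 to 0.609 for Eno1b when 1 library was left out. The lowest values came without siNT replicate 1 and the highest without siNT replicate 2, and Eno1 was also positive, at 0.051, without siFmr1 replicate 1.

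In the co-transfected cells Eno2 was the member that changed most. Its normalized counts were 4007, 3562 and 4544 in siNT_pcDNA, 1890, 1831 and 2386 in siMbnl1_pcDNA, and 2494, 1977 and 2245 in siMbnl1_cMBNL1. Both siMbnl1 groups lay below all siNT_pcDNA libraries. Eno2 fell by 0.99 on the log2(value + 1) scale with siMbnl1_pcDNA (SE 0.14, limma adjusted p = 8.42e-05) and by 0.85 with siMbnl1_cMBNL1 (SE 0.14, limma adjusted p = 0.000265). The cytosolic MBNL1 group differed from siMbnl1_pcDNA by 0.14 ± 0.14 (limma adjusted p = 0.622).

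With siFmr1_pcDNA, Eno2 measured 4966, 4899 and 4861 normalized counts, above every siNT_pcDNA library, and the difference of 0.29 ± 0.14 did not pass (limma adjusted p = 0.124). With siFmr1_nMBNL1 it measured 4050, 2570 and 2957. That was below every siFmr1_pcDNA library, and Eno2 fell by 0.65 against siFmr1_pcDNA (SE 0.14, limma adjusted p = 0.0331). This call was lost when any of 5 of the 6 libraries was left out (adjusted p up to 0.165). Against siNT_pcDNA the difference was -0.36 ± 0.14 (limma adjusted p = 0.0544).

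Eno1 fell with siFmr1_nMBNL1 against siNT_pcDNA, by 0.33 (SE 0.12, limma adjusted p = 0.044). Its normalized counts were 52524, 40582 and 43473 against 62190, 49388 and 59564, and the groups overlapped. The call was lost with only the 2 groups in the fit (adjusted p = 0.161) and when any of 4 of the 6 libraries was left out. The sum of Eno1 and Eno1b differed by -0.25 ± 0.13 in that comparison and was not called (limma adjusted p = 0.124). Eno1 differed by -0.32 ± 0.12 with siMbnl1_pcDNA (limma adjusted p = 0.0548), and the difference between these groups was not tested. Eno1b was called in none of the 6 co-transfection comparisons, with log2 differences from -0.22 to 0.14.

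Eno3 rose with siFmr1_nMBNL1, by 0.26 (SE 0.09, limma adjusted p = 0.0304), from 541, 449 and 518 to 614, 599 and 583 normalized counts. Its call was lost with only the 2 groups in the fit (adjusted p = 0.137) and without any of 3 of the libraries. Of the 4 members, 0 were called with siFmr1_pcDNA (37% of all genes called, 0 members at an unadjusted p under 0.05), 1 with siMbnl1_pcDNA (32.8%), 2 with siFmr1_nMBNL1 (41.1%) and 1 with siMbnl1_cMBNL1 (33.7%). Against its own siRNA control, 1 was called for nuclear MBNL1 (1.76% of all genes) and 0 for cytosolic MBNL1 (2.24%, 0 members at an unadjusted p under 0.05). The 4 comparisons with siNT_pcDNA share those control libraries.

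The Eno1b share was 28.9% ± 0.624 in siNT_pcDNA and 32.0%, 32.2%, 32.5% and 32.6% in siFmr1_pcDNA, siMbnl1_pcDNA, siFmr1_nMBNL1 and siMbnl1_cMBNL1. The siNT_pcDNA libraries reached 29.6% at most, and the lowest of the other 12 libraries was 31.7%. An exact two-sided permutation test of each group gave p = 0.1, the smallest that 3 against 3 allows, and 0.2 after adjustment over the 8 shares tested in brain, testis and these cells. This test was chosen after seeing the data.

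**Figure D4:**
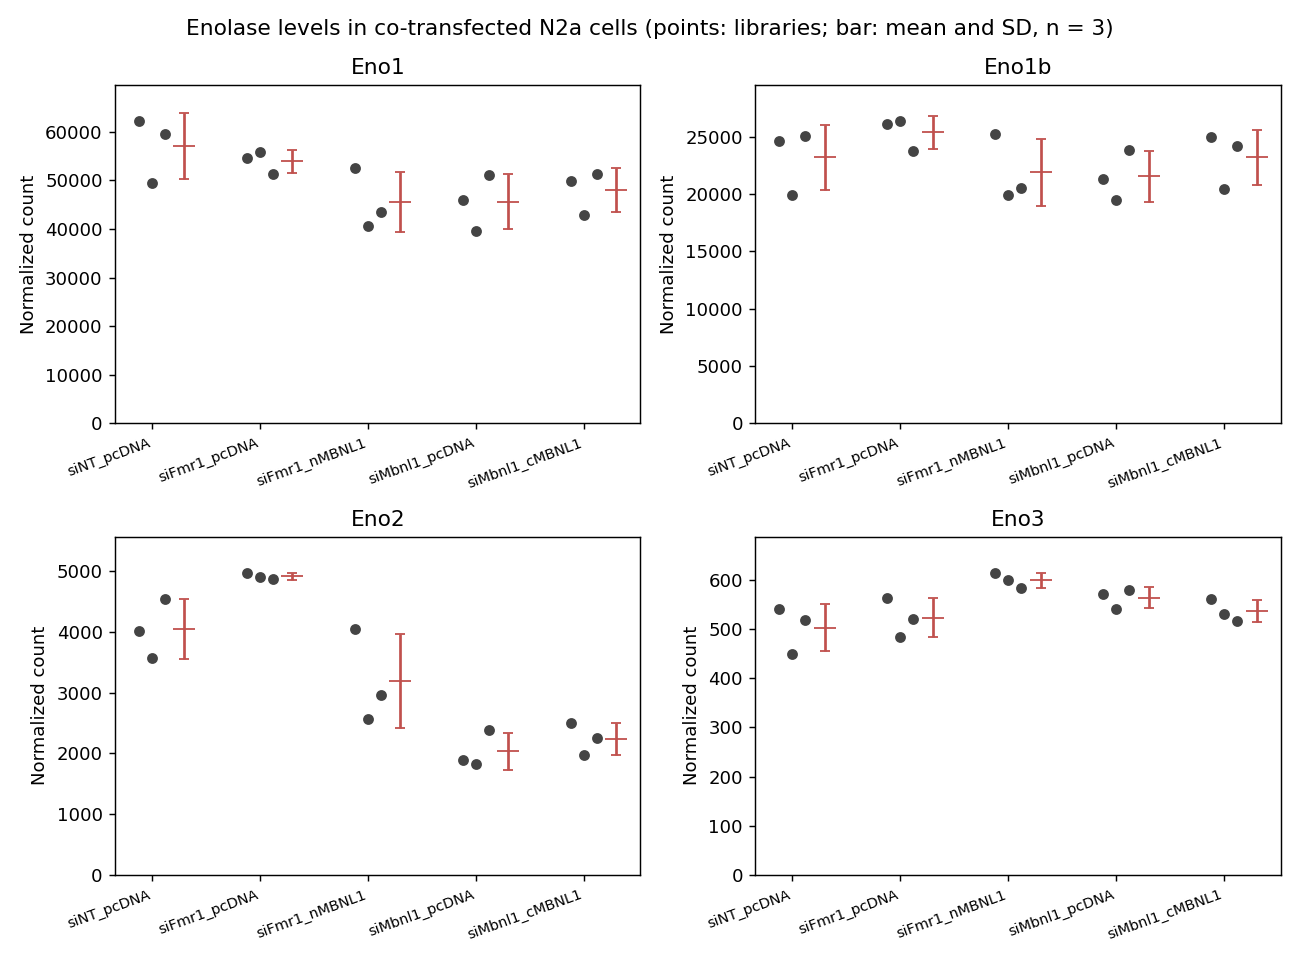
Normalized counts (vertical, from 0) of each enolase gene in the 5 groups of co-transfected N2a cells (horizontal), points for libraries and bars for mean and SD (n = 3). Eno2 lies at 1831 to 2494 in the siMbnl1 groups and at 3562 to 4544 in siNT_pcDNA, while Eno1b overlaps between all groups and siNT_pcDNA.

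The deposited splicing tables give a readout of the enolase genes that the choice of members did not use. In the authors' deposited table, Eno1 had 28 skipped exon events over all comparisons and Eno3 had 17, none with a false discovery rate (FDR) under 0.05. Eno1b had 0 events. Eno2 had 45, of which 5 passed, all in the co-transfection comparisons. The share of all skipped exon events that passed was not computed, so this count has nothing to be set against. The 5 events concerned a pair of neighbouring exons of 134 and 223 bases. They are shown with 20 bases of the adjoining exons on each side, in lower case, from GRCm38, minus strand, at chr6:124766531-124766664 and chr6:124766105-124766327, because all 5 events turn on them and their lengths bear on the reading frame.
Eno2 exon of 134 bases: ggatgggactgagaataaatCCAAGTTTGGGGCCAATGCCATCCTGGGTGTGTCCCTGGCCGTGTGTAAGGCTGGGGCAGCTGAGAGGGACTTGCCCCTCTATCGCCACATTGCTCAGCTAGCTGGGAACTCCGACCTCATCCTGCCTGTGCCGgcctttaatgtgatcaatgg
Eno2 exon of 223 bases: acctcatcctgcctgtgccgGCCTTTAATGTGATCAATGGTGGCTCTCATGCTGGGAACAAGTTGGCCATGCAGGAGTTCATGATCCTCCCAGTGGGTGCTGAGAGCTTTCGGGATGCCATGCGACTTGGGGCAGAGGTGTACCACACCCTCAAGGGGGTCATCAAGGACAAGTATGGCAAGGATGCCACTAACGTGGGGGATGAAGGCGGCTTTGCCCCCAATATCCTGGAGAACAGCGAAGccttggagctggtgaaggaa
Capitals mark the exon itself. Neither length is a multiple of 3, while both exons together, 357 bases, are.

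In the authors' deposited table of siFmr1_pcDNA and siNT_pcDNA, the inclusion level of the 134-base exon differed by 0.137 (FDR 1.13e-12) in the event that skips this exon alone. The same event differed by 0.015 (FDR 1) in the authors' deposited table that names siMbnl1_pcDNA, 0.012 (FDR 1) in the one that names siFmr1_nMBNL1 and 0.052 (FDR 0.249) in the one that names siMbnl1_cMBNL1. The other 4 events with an FDR under 0.05 set 1 of the exons against a form that lacks both. In the authors' deposited table that names siMbnl1_pcDNA, the 134-base exon differed by 0.129 in such an event (FDR 0.0269). The same event differed by 0.036 (FDR 1) in the authors' deposited table of siFmr1_pcDNA and siNT_pcDNA. In the authors' deposited table that names siFmr1_nMBNL1, the 223-base exon differed by 0.1 (FDR 0.0277). In the authors' deposited table that names siMbnl1_cMBNL1, the 223-base exon differed by 0.163 (FDR 0.000339) and the 134-base exon by 0.15 (FDR 0.00435). The tables do not say which group each set of libraries is, so these sizes have no direction, and the last 3 tables name only 1 of the 2 groups. The events that skip both exons share one skipping junction and are not independent.

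The WT brain regions differed in Eno1, Eno2 and Eno3 levels, in a comparison in which 43.4% (hippocampus against cortex), 67.9% (cerebellum against cortex) and 68% (cerebellum against hippocampus) of all genes were called. Eno3 was 1.09 ± 0.15 higher on the log2 scale in cerebellum than in cortex (edgeR adjusted p = 6.64e-05) and 1.09 ± 0.15 higher than in hippocampus (edgeR adjusted p = 5.9e-05). Cerebellum libraries measured 14.3, 15.8 and 16.8 TPM, above all 6 others, which reached 8.06 TPM.

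Eno2 was lower in cerebellum than in cortex, by -0.30 ± 0.06 (edgeR adjusted p = 0.000846), and than in hippocampus, by -0.18 ± 0.06 (edgeR adjusted p = 0.0216, and 0.0603 without hippocampus replicate 1). Eno1 was higher in hippocampus than in cortex, by 0.26 ± 0.07 (edgeR adjusted p = 0.0156), and lower in cerebellum than in hippocampus, by -0.32 ± 0.07 (edgeR adjusted p = 0.00236). The first was lost without cortex replicate 2 or 3 (adjusted p up to 0.0642). The sum of Eno1 and Eno1b differed by 0.26 ± 0.07 and -0.32 ± 0.07 in these 2 comparisons (edgeR adjusted p = 0.0158 and 0.00237). Eno1b was -0.21 ± 0.09 lower in cerebellum than in hippocampus (edgeR adjusted p = 0.0496), a call lost in all 6 fits without 1 library. Of the 4 members, 1, 2 and 4 were called in the 3 comparisons.

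The rest of glycolysis, a list of 26 enzymes without these 4 genes, held no edgeR call in any KO comparison or in the first N2a comparison, with 18 to 23 members tested. At an unadjusted p under 0.05 there were 10 in cortex, 3 in hippocampus, 2 in cerebellum, 0 in liver, 10 in muscle, 5 in testis and 0 in N2a cells. The share of all genes at that threshold was not computed, so nothing is read from this or any other unadjusted count. Of the glycolysis list, DESeq2 called 5 in cortex, 1 in hippocampus, 5 in muscle and 0 in the others. Over all genes with an adjusted p, DESeq2 called 904 of 10563 in cortex, 247 of 11172 in hippocampus and 1093 of 13072 in muscle. The list's median log2 fold change was -0.0857 in cortex, 0.0498 in liver, -0.244 in muscle and -0.0795 in testis, where the median over all genes lay between -0.00545 and -0.00155. Of the 6 gluconeogenesis genes, 2 were tested in each brain region, 5 in liver, 4 in muscle and 3 in testis, and edgeR called none of these. At an unadjusted p under 0.05, 1 was found in cortex, 2 in hippocampus, 2 in muscle and 1 in testis, and DESeq2 called 1 in cortex and 1 in muscle.

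In the co-transfected cells, 22 glycolysis genes were tested. With siMbnl1_pcDNA 2 rose and 6 fell, where 32.8% of all genes were called (median -0.259, all genes 0.00732). With siMbnl1_cMBNL1 2 rose and 8 fell, where 33.7% of all genes were called (median -0.196, all genes 0.0258). Leaving out 1 library moved the first count to between 4 and 13 and the second to between 5 and 14, both highest without siNT_pcDNA replicate 2. The first was 4 without siMbnl1_pcDNA replicate 2 and 5 without its replicate 1 or siNT_pcDNA replicate 3. The second was 5 without siMbnl1_cMBNL1 replicate 2 or siNT_pcDNA replicate 3. The count for siFmr1_pcDNA was 4 without siNT_pcDNA replicate 2. Aldoc, the brain form of aldolase, fell by 1.45 (SE 0.27, limma adjusted p = 0.000659) and by 1.77 (SE 0.27, limma adjusted p = 0.000106). Pfkm, a phosphofructokinase, fell by 0.69 (limma adjusted p = 5.59e-05) and 0.42 (limma adjusted p = 0.00238), and Pgam2, the muscle phosphoglycerate mutase, rose by 0.65 (limma adjusted p = 0.0448) and 1.08 (limma adjusted p = 0.00225). Tpi1, triosephosphate isomerase, fell by 0.50 (limma adjusted p = 0.0177) and 0.64 (limma adjusted p = 0.00356). Pklr, a pyruvate kinase of liver and red cells, rose by 1.61 with siMbnl1_pcDNA (limma adjusted p = 0.0392). Hk3, a hexokinase, fell by 1.84 with siMbnl1_cMBNL1 (limma adjusted p = 0.0232), where Eno4, a further enolase family gene, rose by 0.76 (limma adjusted p = 0.00102).

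With siFmr1_pcDNA, where 37% of all genes were called, 2 of the 22 rose and 0 fell, among them Eno4, which rose by 0.62 (limma adjusted p = 0.00416). With siFmr1_nMBNL1, where 41.1% of all genes were called, 3 rose and 2 fell. Eno4 rose there by 1.02 (limma adjusted p = 6.07e-05) and Pgam2 by 0.65 (limma adjusted p = 0.0374). Gpi1, glucose-6-phosphate isomerase, fell by 0.38 (limma adjusted p = 0.00729). Pfkp, a phosphofructokinase, fell by 0.37 (limma adjusted p = 0.00155), and by 0.42 against siFmr1_pcDNA (limma adjusted p = 0.0178), the one glycolysis call there. In 4 of the 6 fits without 1 library, no glycolysis gene was called against siFmr1_pcDNA. With siMbnl1_cMBNL1 against siMbnl1_pcDNA no glycolysis gene was called by limma, and 3 had an unadjusted p under 0.05.

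Of the gluconeogenesis genes, 3 were tested in these cells. Fbp2, a fructose-bisphosphatase, rose by 1.71 with siFmr1_pcDNA (limma adjusted p = 0.0163), 1.73 with siFmr1_nMBNL1 (limma adjusted p = 0.0132) and 1.63 with siMbnl1_pcDNA (limma adjusted p = 0.0235). Pck2, the mitochondrial phosphoenolpyruvate carboxykinase, rose by 0.36 with siFmr1_pcDNA (limma adjusted p = 0.00365) and fell by 0.25 with siMbnl1_pcDNA (limma adjusted p = 0.0344). Pcx, pyruvate carboxylase, rose by 0.37 with siMbnl1_cMBNL1 against siNT_pcDNA (limma adjusted p = 0.00622) and by 0.51 against siMbnl1_pcDNA (limma adjusted p = 0.0142). In 4 of the 6 fits without 1 library, no gluconeogenesis gene was called against siMbnl1_pcDNA.

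Between WT brain regions, 8 of 22 glycolysis genes were higher and 3 lower in hippocampus than in cortex, 5 higher and 10 lower in cerebellum than in cortex, and 4 higher and 16 lower in cerebellum than in hippocampus. Of all genes, 43.4%, 67.9% and 68% were called in these comparisons. In cerebellum against cortex, the extremes were Hk2, a hexokinase, at 2.11 and Pgam2 at -5.41 (log2 fold change, edgeR adjusted p = 4.83e-09 and 4.24e-08). Aldoc was 1.42 higher there (edgeR adjusted p = 4.23e-09), and Hkdc1, a hexokinase-like gene, differed by -2.54 (edgeR adjusted p = 9.74e-08). Against hippocampus, cerebellum differed by 1.36 in Aldoc (edgeR adjusted p = 5.91e-09), -6.57 in Pgam2 (edgeR adjusted p = 3.99e-09) and -1.58 in Pfkl, the liver phosphofructokinase (edgeR adjusted p = 1.14e-08). In hippocampus against cortex, Hkdc1 differed by -1.70 (edgeR adjusted p = 8.72e-06).

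The annotated neighbours of Eno1b within 1 Mb were 19 genes, 3 of them protein coding, of which Commd10 and Sema6a were tested. Neither was called in a KO comparison or in the first N2a experiment. Sema6a, a semaphorin, differed by -0.73 ± 0.19 in muscle (edgeR adjusted p = 0.0638) and by -0.087 ± 0.15 in liver (edgeR adjusted p = 0.882). In testis, where Eno1b overlapped between genotypes, Sema6a differed by -0.65 ± 0.25 (edgeR adjusted p = 0.137). Commd10 fell by 0.40 with siFmr1_pcDNA (SE 0.08, limma adjusted p = 0.00147).

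Likeness over the 36 tissue libraries was measured as Pearson's r of log2(CPM + 1) among 10822 genes, as a description, since libraries share tissue and table. The genes most like Eno1 were Cdh2 (r = 0.967), Arl6ip1 (0.963) and Paqr7 (0.962). Those most like Eno3 were Unc45b (0.994), C1qtnf9 (0.986) and Smyd1 (0.984). Eno1b had no close match, with Dnajb1 at 0.643, Csrnp1 at 0.642 and Ppp1r10 at 0.603. After each tissue's mean was subtracted, Zc3h6 (0.895), Gm12338 (0.891) and Glrx (0.888) were the most like Eno1b, and Eno1 stood at -0.861. With tissue means removed, Eno1b varied most by genotype in liver and muscle, the values that chose the members. These r values largely restate that choice and are no separate result. Eno2 was left out because it was not analysed in liver and testis.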

How the data were processed

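The labels gave the groups and replicate numbers. Per the file headers, the brain, liver, muscle, testis and first N2a tables hold raw counts and TPM that the authors deposited, the co-transfection table holds a signal deposited as normalized counts by a method not given in the sources used here, and the splicing tables hold rMATS output with FDR (adjusted p-values) and other values that the authors deposited. Fold changes in the authors' own columns were left unused. Per the submitters' processing notes, the tools named include STAR 2.6.1, Bowtie2 2.3.5, RSEM 1.3.1 and DESeq2 1.16.1, without roles. The muscle table has 4 columns with no sample label, which were not used.

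Counts were tested on each whole table with the edgeR 4.0.16 quasi-likelihood test (filterByExpr, TMM), and normalized counts with limma 3.58.1 after adding 1 and taking log2, keeping genes whose mean was 1 or more, in R 4.3.3, with Benjamini-Hochberg adjustment over all genes and a threshold of 0.05. The sum of Eno1 and Eno1b replaced both rows in separate fits. Scripts were tested on simulated data. Coding sequences were aligned with Biopython 1.88. Alternatives were DESeq2 1.42.0, RLE factors, no filter, all 18 brain libraries, other pseudocounts, only the 2 groups, a replicate block and each library left out. The members and lists were chosen with earlier results of these data known. Named genes are the members, Fmr1, called list genes (where over 6 were called, examples among the 3 of largest change in each direction, with genes repeated between comparisons), the 3 most alike genes and the neighbours of Eno1b. One gene of the glycolysis list is counted but not reported here by name.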

Additional observations from a re-analysis of the deposited data

Results flagged for a closer look

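Eno2 stood in opposite order in 2 tissues: every KO library was above every WT library in muscle (a KO over WT ratio of mean TPM of 2.71, from 5 to 21 reads per library) and below in cortex (a ratio of 0.919). The difference between the tissues was not tested. The muscle values are among those that chose the members, and the cortex difference did not pass (edgeR adjusted p = 0.209). The share of all genes that separate by genotype in this way was not computed, so nothing is read from the order.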

How the results depend on the processing

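With the settings that left no library out, 346 of the members' values stayed the same, 4 gained a call and 5 lost one. With 1 library left out, 432 stayed the same, 8 gained a call and 23 lost one. Staying the same means keeping the side of the threshold. In liver and muscle, where no test was made, it means moving by less than the spread between replicates. The counts of 346 and 432 thus include values that could not gain or lose a call. No value with a call, in either fit, changed sign. In liver and muscle all alternatives, left-out libraries included, moved a value by less than the spread between replicates: Eno1b stayed between -6.48 and -6.01 in liver and between -6.92 and -6.54 in muscle, Eno1 between 0.657 and 1.01 and between 0.549 and 0.812, their sum between 0.144 and 0.379 and between -0.149 and -0.079, and Eno2 in muscle between 0.973 and 1.73 (log2 fold changes). Eno3 in liver ran from -0.383 to 0.0852 and so had no settled sign. The cause of the changes that follow was not tested.

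Without a filter on low values, Eno1 with siFmr1_nMBNL1 (-0.327) and Eno1b in cerebellum against hippocampus (-0.212) lost their calls. With only the 2 groups, Eno1 (-0.327) and Eno3 (0.256) with siFmr1_nMBNL1 lost theirs, while Eno1 (-0.252) and the sum of Eno1 and Eno1b (-0.242) gained one against siFmr1_pcDNA. The replicate numbers did not clearly pair the samples: in no comparison did every same-numbered pair correlate above 0.1, and nowhere did every library match its own number best. With 3 libraries per group this cannot exclude pairing. Between WT brain regions, replicate 1 matched its own number best in every pair of regions (r = 0.158, 0.206 and 0.244). Replicate 3 did so in both pairs with cortex, and replicate 2 in none. The main region tests used no pairing. With the replicate block, Eno1 with siMbnl1_pcDNA (-0.324) and Eno2 with siFmr1_nMBNL1 (-0.358) gained a call and Eno1b in cerebellum against hippocampus (-0.215) lost it. The block moved the count of all called genes from 3 to 1 in cortex, 31 to 1 in hippocampus, 33 to 39 in cerebellum, 49 to 24 in liver, 512 to 31 in muscle and 661 to 377 in testis.

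Leaving out 1 library at a time gave, for Eno1, -0.425 to -0.228 with siMbnl1_pcDNA, -0.435 to -0.249 with siFmr1_nMBNL1, -0.345 to -0.165 with siMbnl1_cMBNL1 and 0.211 to 0.336 in hippocampus against cortex. For the sum of Eno1 and Eno1b it gave -0.359 to -0.168 with siMbnl1_pcDNA, -0.36 to -0.179 with siFmr1_nMBNL1 and 0.206 to 0.332 in hippocampus against cortex. For Eno2 it gave -0.543 to -0.215 with siFmr1_nMBNL1, -0.832 to -0.504 for that group against siFmr1_pcDNA, and -0.245 to -0.155 in cerebellum against hippocampus. For Eno3 with siFmr1_nMBNL1 it gave 0.177 to 0.311, and for Eno1b in cerebellum against hippocampus -0.254 to -0.217.

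Counts of all called genes differed between DESeq2 and edgeR: 904 against 3 in cortex, 247 against 31 in hippocampus, 92 against 33 in cerebellum, 277 against 49 in liver, 1093 against 512 in muscle, 470 against 661 in testis and 0 against 0 in the first N2a experiment. Between WT regions they were 6054 against 6610 (hippocampus and cortex), 9842 against 10354 (cerebellum and cortex) and 10108 against 10359 (cerebellum and hippocampus). One fit of all 18 brain libraries called 1277 in cortex and 11 in cerebellum. With only the 2 groups, the 4 comparisons with siNT_pcDNA called 3658, 2428, 4166 and 3027 genes (siFmr1_pcDNA, siMbnl1_pcDNA, siFmr1_nMBNL1 and siMbnl1_cMBNL1, against 6013, 5330, 6670 and 5478), and the MBNL1 groups 2812 and 2854 against their own siRNA (286 and 364).

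Glycolysis genes called became 5 in cortex, 1 in hippocampus and 5 in muscle with DESeq2, and 4 in cortex with all 18 brain libraries. With only the 2 groups they became 4 with siMbnl1_pcDNA, 6 with siMbnl1_cMBNL1, 8 for siFmr1_nMBNL1 against siFmr1_pcDNA and 4 for siMbnl1_cMBNL1 against siMbnl1_pcDNA. Without 1 library they ran from 0 to 3 in cortex, 0 to 1 in muscle, 0 to 2 in testis, 2 to 4 with siFmr1_pcDNA, 4 to 13 with siMbnl1_pcDNA, 5 to 14 with siMbnl1_cMBNL1 and 0 to 1 for siFmr1_nMBNL1 against siFmr1_pcDNA. Gluconeogenesis genes called became 1 in cortex and 1 in muscle with DESeq2, 1 in cortex with all 18 brain libraries, and 2 with siFmr1_nMBNL1 without a filter. With only the 2 groups they became 1 with siFmr1_pcDNA, 0 with siMbnl1_pcDNA and 2 for siMbnl1_cMBNL1 against siMbnl1_pcDNA. Without 1 library they ran from 0 to 1 in cortex, muscle, siFmr1_nMBNL1 and siMbnl1_cMBNL1 against siMbnl1_pcDNA, from 1 to 2 with siFmr1_pcDNA and from 0 to 2 with siMbnl1_pcDNA.

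Eno1b in KO liver and muscle rests on 6 to 36 reads per library, and Eno2 in muscle on 5 to 21, which limits the precision of their fold changes.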
